A study of Mus musculus with 16 samples.

Results

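The genes described are 7 regulators of the embryonic stem cell state: Pou5f1 (which encodes OCT4), Sox2, Nanog, Sall4, Utf1, Lin28a and Lin28b. They were chosen by symbol, with the widest line of the deposited table taken for each, and all 7 were found among 24978 symbols and passed the filter on low values that 14094 genes passed. Nascent RNA had been labelled with 2 mM bromouridine for 30 min and captured with an antibody (Bru-seq), so the values report ongoing transcription rather than standing mRNA. The cells were F121-9 mouse embryonic stem cells, a hybrid line with 129 and castaneus (cast) copies of its chromosomes, and edited derivatives of that line, all grown on gelatin in 2i and LIF per the labels' protocols. The study, by its title, concerns cis elements that control DNA replication in time and space.

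Each library was named by its edit. The lettered deletions were abc.del, ab.del and c.del with 2 libraries each, and ac.del, bc.del, a.del and b.del with 1 library each. The labels 680kinv, 100kdel, 245kdel and 4k.b.c had 1 library each, and unedited F121-9 had 2. The labels used here give neither the position of a site nor which copy was edited. Sample names within an edited group end in different codes, and nothing says whether replicates are cultures or edits of their own. The p-values therefore refer to the spread among these libraries, which may be technical. Libraries held 8.96 to 32.0 M allele-assigned reads (median 16.4 M, where M is 1000000).

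OCT4 and SOX2 bind DNA side by side and, with NANOG, form the core circuit that keeps embryonic stem cells self-renewing, each factor acting on the genes of the others. SALL4 is a zinc finger protein that works with this core, and UTF1 is a chromatin-associated protein of undifferentiated cells. LIN28A and LIN28B are RNA-binding proteins that block maturation of the let-7 microRNAs, which otherwise push cells towards differentiation.

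The OCT4-SOX2 composite element is the best known DNA feature of this circuit. Promoters are shown for the genes called below between runs of sample numbers, Lin28b in the opposite direction to the others. The windows are the 250 bases before the RefSeq start (GRCm38.p6, the mm10 build of the files), 5′ to 3′ on the gene's strand, for Pou5f1 (chr17:35505782-35506031, plus strand), Sox2 (chr3:34649745-34649994, plus), Nanog (chr6:122707239-122707488, plus) and Lin28b (chr10:45470202-45470451, minus). Capitals mark matches on either strand to the SOX core CATTGT, to the octamer core ATGCAAA, or to the composite, which is the SOX core, 1 free base and the octamer core in that order and so contains both.
Pou5f1: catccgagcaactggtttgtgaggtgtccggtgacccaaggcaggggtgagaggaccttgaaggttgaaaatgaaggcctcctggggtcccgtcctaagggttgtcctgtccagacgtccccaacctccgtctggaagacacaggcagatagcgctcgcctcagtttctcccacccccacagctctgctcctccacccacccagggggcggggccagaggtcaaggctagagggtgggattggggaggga
Sox2: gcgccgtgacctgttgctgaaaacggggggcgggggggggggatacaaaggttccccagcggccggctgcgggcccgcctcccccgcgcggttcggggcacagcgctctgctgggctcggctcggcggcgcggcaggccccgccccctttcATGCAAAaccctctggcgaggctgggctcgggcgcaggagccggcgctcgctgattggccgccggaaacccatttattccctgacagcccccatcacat
Nanog: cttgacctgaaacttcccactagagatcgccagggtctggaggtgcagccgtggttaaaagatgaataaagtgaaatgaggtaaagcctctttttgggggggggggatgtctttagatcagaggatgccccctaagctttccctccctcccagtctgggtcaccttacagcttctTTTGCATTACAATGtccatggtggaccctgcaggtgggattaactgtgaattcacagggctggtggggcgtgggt
Lin28b: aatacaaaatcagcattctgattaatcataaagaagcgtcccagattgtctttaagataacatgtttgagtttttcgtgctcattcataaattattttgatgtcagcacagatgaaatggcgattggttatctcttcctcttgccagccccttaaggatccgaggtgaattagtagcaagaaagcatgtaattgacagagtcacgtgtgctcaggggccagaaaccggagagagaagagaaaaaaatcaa
RefSeq promoters matched 6 of the 7 genes (Sall4 was not matched). The composite was found in Nanog, at -75 to -62 from the start on the opposite strand, and Nanog was the 1 gene of 27025 with it in such a window (0.0037%; 250 bases each). The octamer core was found in Sox2 at -99, and 4.12% of 32851 windows held it. The SOX core was found in the Lin28a window (not printed) at -96, and 10.7% of windows held it. The Pou5f1, Utf1 and Lin28b windows held none of these letters, which says nothing of sites elsewhere.

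The expression of stem cell markers matched the labels. All 10 markers of mouse embryonic stem cells were detected, with a summed level of 1580 to 2227 counts per 1000000 counted reads of a copy (CPM, averaged over both copies), while the 5 trophoblast markers summed to 0 to 1.17 CPM and the 6 fibroblast markers to 0 to 1.69 CPM, with Hand1 and Twist1 at 0 in all libraries. The 6 primitive endoderm markers summed to 5.15 to 19.5 CPM and the 4 primed epiblast markers to 10.1 to 22.1 CPM. Some libraries stood apart in the balance of the copies. The 129 copy gave 99.7% and 99.8% of the reads of chromosome 1, and 0.433% and 0.426% of those of chromosome 12, in 4k.b.c and a.del. Of chromosomes that carry a member, chromosome 3 (Sox2) was unbalanced in c.del replicate 1 (33.8% 129) and ac.del (36.3%), and chromosome 7 (Utf1) in 4k.b.c (36.7%). In all other autosomes and libraries, chromosome 8 of 4k.b.c and a.del (35.7% and 35.1%) excepted, the share was 46.8% to 58.8%. The X chromosome, which carries no member, was unbalanced in all 10 lettered deletions and in 4k.b.c: the 129 share of its reads was 1.03% to 13.1% in 8 of these libraries and 99.8% in c.del replicate 1, ac.del and b.del. In 680kinv, 100kdel, 245kdel and both F121-9 libraries it was 49.7% to 55.6%. The median level of X-linked genes, relative to their mean over libraries, was -0.36 to -0.21 on the log2 scale in the 11 unbalanced libraries, against 0.35 to 0.80 in the 5 others. The sample numbers also fall into 2 runs of 8 libraries, called deposit blocks here, whose meaning is not stated: the first holds both F121-9 libraries, 680kinv, both abc.del, bc.del and 1 each of ab.del and c.del, and the second holds the rest.

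Nanog was by far the most transcribed of the 7 genes per unit of length, and Utf1 and Lin28a the least. Divided by gene span, the mean of the copies was 23.5 ± 7.25 CPM per kb for Nanog (SD, n = 16 libraries), 9.40 ± 3.98 for Sox2, 4.25 ± 2.15 for Pou5f1, 2.42 ± 0.708 for Sall4, 1.27 ± 0.367 for Lin28b, 0.760 ± 0.449 for Utf1 and 0.652 ± 0.392 CPM per kb for Lin28a. Nanog was above Sox2, and Sox2 above Pou5f1, in all 16 libraries, Pou5f1 was above Sall4 in 15, Sall4 above Lin28b in 13 and Lin28b above Utf1 in 15. Utf1 was above Lin28a in 10 libraries, so this pair had no clear order. The gap between neighbours was larger than the sum of their SDs between Nanog and Sox2 and between Sall4 and Lin28b, and not between the other neighbours. The reads counted are those that cover a difference between 129 and cast, so the density of such differences also enters these levels.

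**Figure D1:**
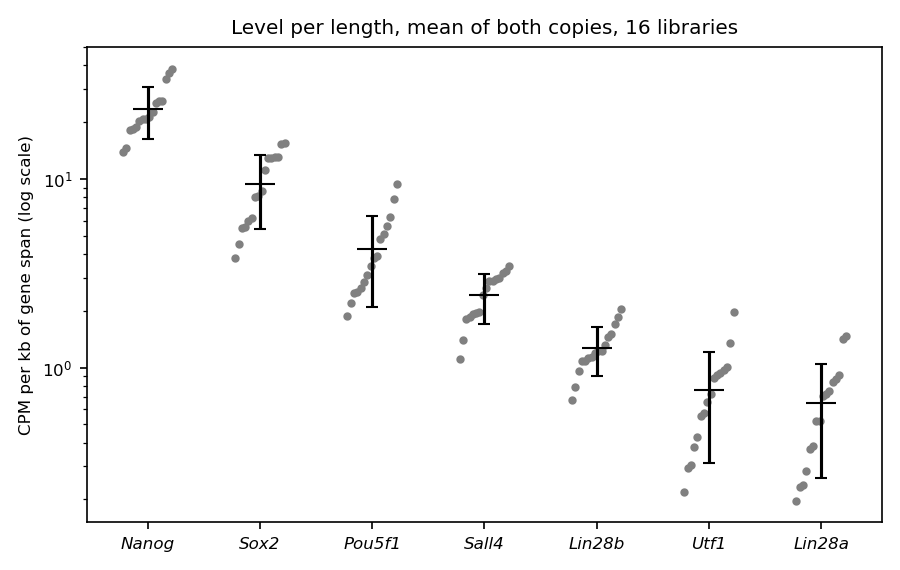
Level of each gene per kb of its span, in CPM per kb on a log axis, as the mean of the 129 and cast copies. Grey points are the 16 libraries sorted within each gene, and black bars show the mean and SD, which run from 23.5 ± 7.25 for Nanog to 0.652 ± 0.392 for Lin28a.

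Undivided, Nanog gave 99.7 to 275 CPM and 2960 to 10706 reads per library, whereas Utf1 gave 0.274 to 2.46 CPM and 5 to 57 reads, so Utf1 values carry large counting error. Across the 16 libraries the SD of log2(CPM + 0.1) was 0.42 for Nanog, 0.42 for Lin28b, 0.47 for Sall4, 0.66 for Sox2, 0.67 for Pou5f1, 0.76 for Utf1 and 0.90 for Lin28a, against a median of 0.51 over all genes tested. Lin28a varied more than 83.0% of genes. Pou5f1 and Nanog have near-identical processed pseudogenes, and their counts are uncertain to the extent that reads were shared despite the mapping quality of 10 given in the file headers. Of the members, Sox2 (chr3:34649995-34652460) was the one whose line overlapped another gene: it lies inside Sox2ot, a longer noncoding transcript on the same strand. Outside Sox2, Sox2ot gave 2.09% to 7.32% (median 3.34%) of the per-kb level of Sox2 in the same library. How many of the reads counted for Sox2 came from Sox2ot was not tested.

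**Figure D2:**
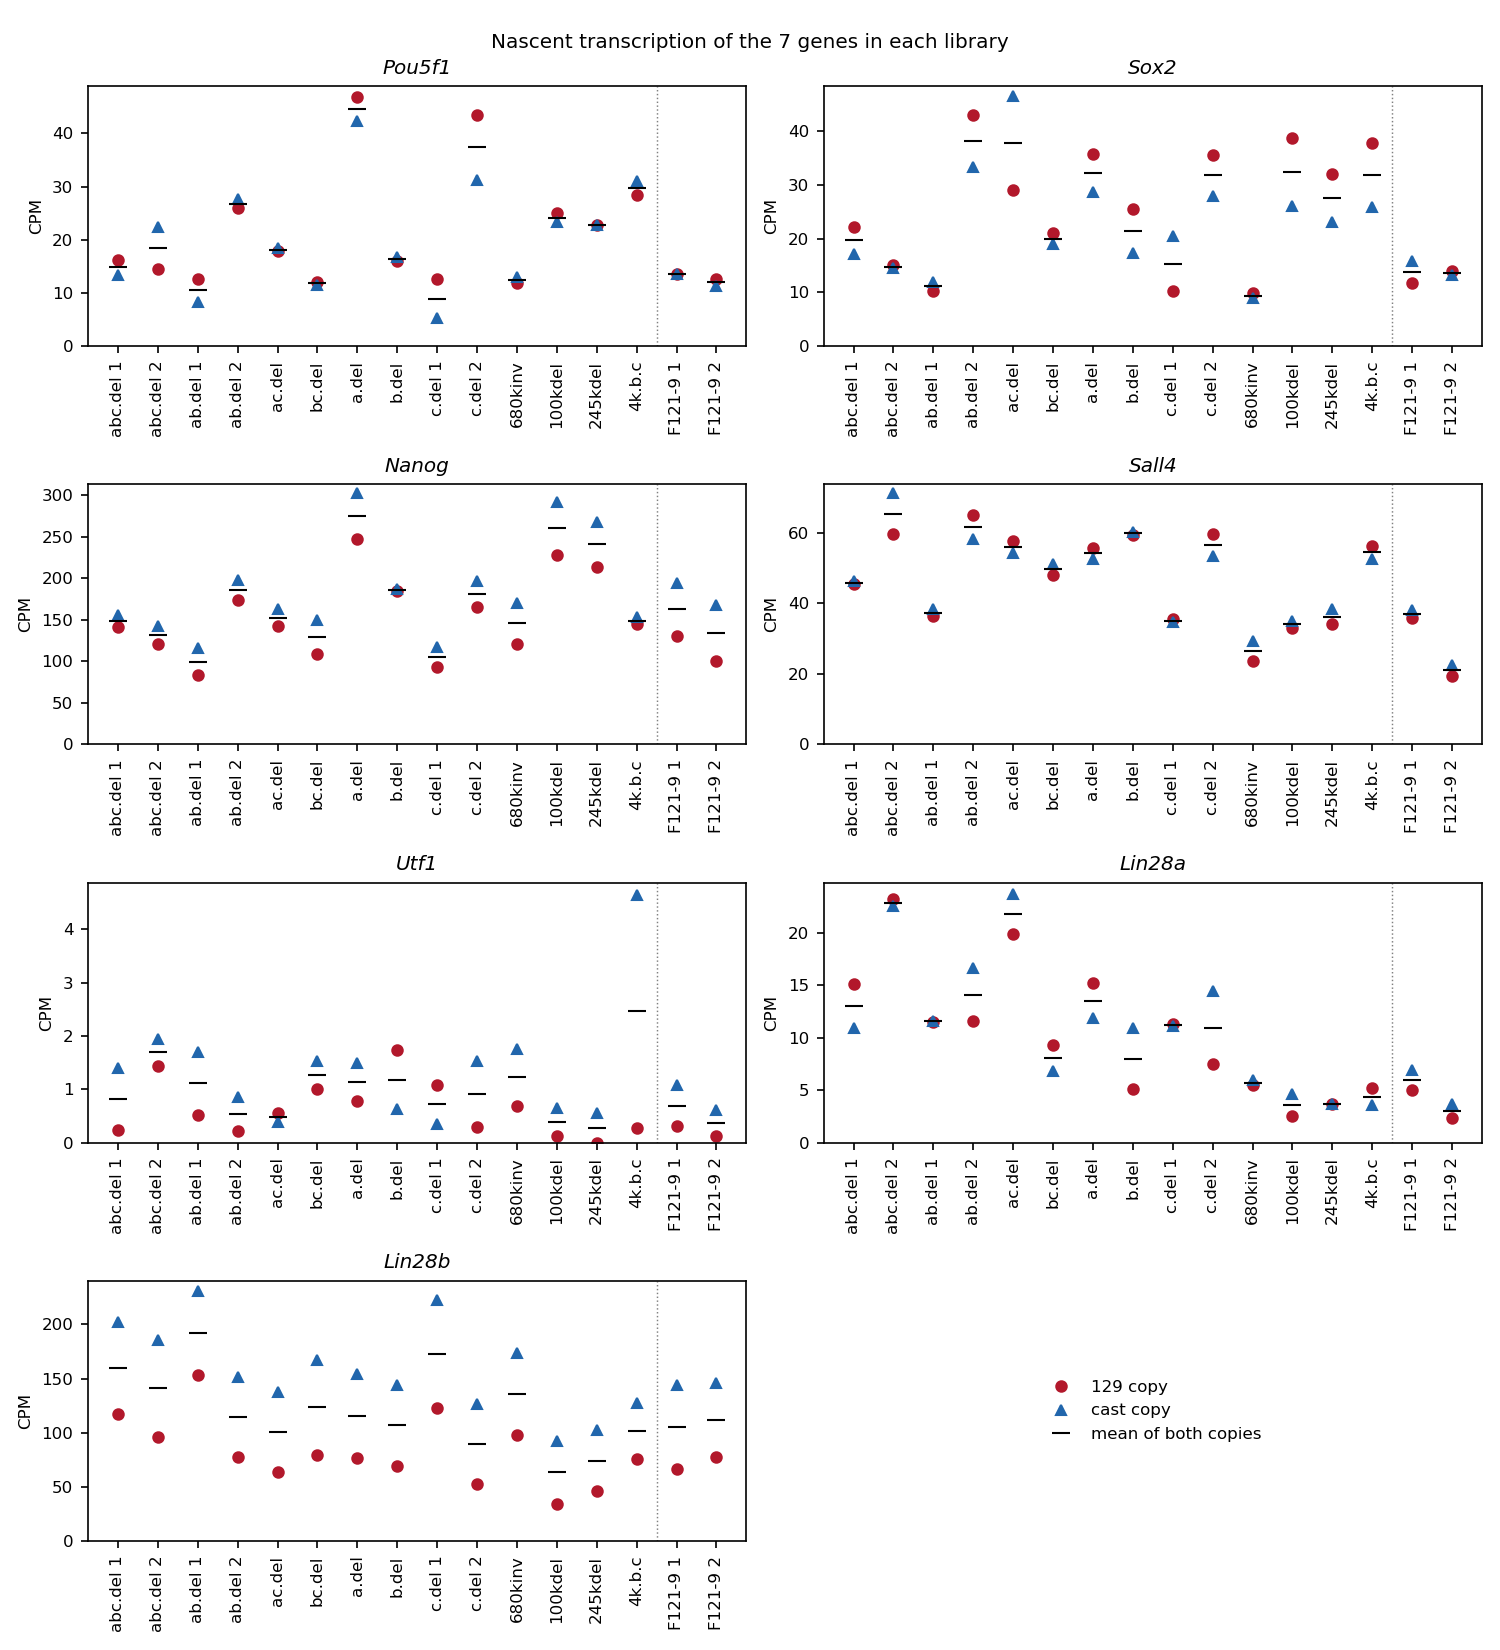
CPM of the 129 copy (red circles), the cast copy (blue triangles) and their mean (black dashes) for each gene in each library, on linear axes from 0, with edited libraries left of the dotted line and F121-9 right of it. Lin28a was at 8.02 to 22.9 CPM in the 10 libraries with a lettered deletion and at 3.04 to 5.96 CPM in the 6 others, and the cast copy of Lin28b was above its 129 copy in all 16 libraries.

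The comparisons of abc.del, ab.del and c.del with F121-9 ask whether deleting the named sites changed transcription of the core genes. All 3 share the same pair of F121-9 libraries, and the imbalance of X, present in every library of the edited groups and absent from F121-9, cannot be told apart from the edits. At an adjusted p of 0.05 (limma, adjusted over 14094 genes) none of the 7 genes was called in abc.del (0.22% of all genes were), in ab.del (0.0497%) or in c.del (0.0497%). At an unadjusted p of 0.05 the members past it were Lin28a and Sall4 in abc.del and Lin28a in ab.del and in c.del, where 1445, 1099 and 1331 of 14094 genes were past it. edgeR called 0 members (0.128%, 0.078% and 0.0568% of all genes in abc.del, ab.del and c.del), and DESeq2 called Lin28a in abc.del and no member in ab.del or c.del (2.54%, 1.33% and 1.58%).

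Lin28a, which blocks let-7 maturation mainly in the cytoplasm, had the widest differences. It gave 13.0 and 22.9 CPM in abc.del, 11.6 and 14.1 CPM in ab.del, and 11.2 and 10.98 CPM in c.del, against 5.96 and 3.04 CPM in F121-9. No library of these 3 groups overlapped F121-9, and the mean was 3.99 times that of F121-9 in abc.del, 2.85 times in ab.del and 2.47 times in c.del. On the log2(CPM + 0.1) scale the differences were 1.99 (SE 0.40, adjusted p = 0.112) for abc.del, 1.56 (SE 0.40, adjusted p = 0.331) for ab.del and 1.36 (SE 0.40, adjusted p = 0.368) for c.del by limma. The abc.del difference passed with deposit block as a covariate (adjusted p = 0.0182; 4.76% of all genes), with only the compared groups in the fit (adjusted p = 0.0233; 4.25%), without c.del replicate 2 (adjusted p = 0.0490; 1.11%) and by DESeq2 (adjusted p = 0.000753). Leaving out F121-9 replicate 2, whose Lin28a was lowest of all, left 1.52 (adjusted p = 0.853).

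The other libraries extend this description of Lin28a. It gave 21.8 CPM in ac.del, 13.54 CPM in a.del, 8.08 CPM in bc.del and 8.02 CPM in b.del. In the libraries labelled 680kinv, 4k.b.c, 245kdel and 100kdel it gave 5.73, 4.39, 3.69 and 3.62 CPM, within the range of F121-9. All 10 libraries with a lettered deletion (8.02 to 22.9 CPM, median 12.3) were thus above all 6 others (3.04 to 5.96 CPM, median 4.04). This grouping was chosen after the values were seen and has no test. It counts 4k.b.c, whose label also carries the letters b and c, among the 6 others. With 4k.b.c counted among the lettered deletions, the sides would overlap. The grouping coincides with the imbalance of X in every library but 4k.b.c, which had 1.03% 129 reads on X and 4.39 CPM of Lin28a. The part of X in this difference was not tested. Of 14094 genes, 26 (0.184%) had all 10 lettered libraries above the 6 others and 101 (0.717%) below, and Lin28a was the 1 member among them. On single copies the groups overlapped: the lowest 129 value of a lettered deletion was 5.10 CPM in b.del, against 5.48 CPM in 680kinv, and the lowest cast value was 6.84 CPM in bc.del, against 6.94 CPM in F121-9 replicate 1.

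Sall4 was at 45.8 and 65.4 CPM in abc.del, 37.3 and 61.5 CPM in ab.del, and 35.04 and 56.5 CPM in c.del, against 36.9 and 21.01 CPM in F121-9. The abc.del and ab.del libraries lay above both F121-9 libraries and c.del overlapped them. The log2 difference was 0.97 in abc.del (SE 0.37, adjusted p = 0.401), 0.78 in ab.del (SE 0.37, adjusted p = 0.656) and 0.67 in c.del (SE 0.37, adjusted p = 0.604), by limma. Utf1 had 0.828 and 1.69 CPM in abc.del libraries, against 0.694 and 0.369 CPM in F121-9, that is at 32 and 57 reads, against 33 and 11 reads. Its difference of 1.08 (SE 0.62) had an adjusted p of 0.599.

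The core factors differed little in abc.del, whose libraries are in the same deposit block as F121-9. Pou5f1 had 14.8 and 18.5 CPM in abc.del libraries, against 13.52 and 11.99 CPM in F121-9 (difference 0.37, SE 0.62, adjusted p = 0.864). Sox2 had 19.7 and 14.8 CPM in abc.del libraries, against 13.8 and 13.6 CPM in F121-9 (0.32, SE 0.54, adjusted p = 0.869). Nanog had 149 and 132 CPM in abc.del libraries, against 163 and 134 CPM in F121-9 (-0.08, SE 0.33, adjusted p = 0.955). The standard errors mean that shifts of these sizes in either direction could not be told from 0. In ab.del and c.del the libraries of a pair were far apart: Pou5f1 was at 10.48 and 26.8 CPM in ab.del and at 8.95 and 37.4 CPM in c.del.

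Lin28b, the mainly nuclear relative of Lin28a, was at 160 and 141 CPM in abc.del, 192 and 114 CPM in ab.del, and 173 and 89.4 CPM in c.del, against 105 and 112 CPM in F121-9. The abc.del and ab.del libraries were above F121-9, and c.del replicate 2 was below. Differences were 0.47 in abc.del, 0.45 in ab.del and 0.20 in c.del (SE 0.33 each, adjusted p = 0.664, 0.746 and 0.859, limma). With deposit block as a covariate the ab.del difference was 0.87 and passed (adjusted p = 0.0306; 1.43% of all genes). Both F121-9 and both abc.del libraries are in the first block, so the block term rested on the ab.del and c.del pairs alone.

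Of the 7 genes 6, all but Nanog, had both abc.del libraries above both F121-9 libraries, as did 29.0% of all genes. In ab.del 3 did (Sall4, Lin28a and Lin28b, background 22.7%) and in c.del 3 did (Sox2, Utf1 and Lin28a, background 22.5%). In c.del replicate 1 chromosome 3, which carries Sox2, was unbalanced. The 44 genes within 5 Mb of Sox2 had a median log2 level of 0.30 there, against -0.17 and -0.10 in F121-9. These levels are relative to each gene's mean over libraries, and their part in the Sox2 values was not tested. No member had both edited libraries below F121-9 in any of the 3 comparisons, where 24.9%, 18.3% and 16.5% of all genes did. Over the 12 libraries of lettered deletions and F121-9, a trend with the number of sites named (0 to 3) called 0 of 14094 genes by limma (0.0%; 939 at an unadjusted p of 0.05), 15 by edgeR (0.106%) and 78 by DESeq2 (0.553%). The slope of Lin28a was 0.59 per site (SE 0.15, adjusted p = 0.368 by limma and 0.0129 by DESeq2) and that of Sall4 was 0.26 (SE 0.11, adjusted p = 0.673). Those of the other 5 members ran from -0.09 for Nanog to 0.24 for Utf1.

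More of these genes were called between the deposit blocks than in the comparisons with F121-9. The blocks set 8 libraries against 8 and the comparisons with F121-9 set 2 against 2, so the counts of calls do not compare sizes of difference. Pou5f1, Sox2 and Nanog were higher in the second block and Lin28b was lower. The comparison was chosen after the values were seen. Only ab.del and c.del have a library in each block. limma called 4 of the 7 members, when 31.8% of all genes were called (24.6% higher and 7.17% lower in the second block). What distinguishes the blocks cannot be told apart from the edits that fall into 1 block only.

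Sox2 was at 21.4 to 38.2 CPM (median 32.0) in the second block, against 9.41 to 19.99 CPM (median 14.3) in the first. It was the 1 member whose blocks did not overlap in the higher direction, as 5.95% of all genes were, and no member was without overlap in the lower direction (1.38% of all genes). Its log2 difference was 1.12 (SE 0.15, adjusted p = 3.73e-05), and 1.06 without the 4 libraries that had an unbalanced autosome. Pou5f1 was at 16.3 to 44.6 CPM (median 25.5) in the second block, against 8.95 to 18.5 CPM (median 12.3) in the first, and abc.del replicate 2 was the first-block library above the lowest of the second. Its difference was 1.05 (SE 0.19, adjusted p = 0.000434). Nanog was at 149 to 275 CPM (median 186) in the second block, against 99.7 to 163 CPM (median 133) in the first, with a difference of 0.61 (SE 0.14, adjusted p = 0.00245).

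Lin28b went the other way, at 63.3 to 115 CPM (median 101) in the second block, against 105 to 192 CPM (median 139) in the first, a difference of -0.58 (SE 0.14, adjusted p = 0.00475). Sall4 (0.42, SE 0.19, adjusted p = 0.106), Utf1 (-0.25, SE 0.38, adjusted p = 0.645) and Lin28a (-0.07, SE 0.41, adjusted p = 0.912) did not pass. The median over all genes was itself 0.20 higher in the second block. After each column was centred on its median, Sox2 (0.81), Pou5f1 (0.74) and Lin28b (-0.88) still passed, and Nanog did not (0.30, adjusted p = 0.0902), with 31.2% of all genes called.

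The same edits showed these directions when the blocks were compared within them. In c.del Pou5f1 was at 37.4 CPM in the second block, against 8.95 CPM in the first, and in ab.del at 26.8 CPM, against 10.48 CPM. In c.del Sox2 was at 31.8 CPM, against 15.3 CPM, and in ab.del at 38.2 CPM, against 11.2 CPM. Both pairs were thus higher in the second block, by 4.17 and 2.56 times for Pou5f1 and by 2.07 and 3.42 times for Sox2. Nanog was at 182 CPM in c.del of the second block, against 105 CPM in that of the first, and at 186 CPM in ab.del, against 99.7 CPM. Lin28b was at 89.4 CPM in c.del of the second block, against 173 CPM in that of the first, and at 114 CPM in ab.del, against 192 CPM. In a fit of these 4 libraries with the edit as a term, the 4 called members passed and so did Sall4 (0.70, adjusted p = 0.0292, limma; 15% of all genes). These libraries are part of those that gave the calls, so this fit is not independent of them. It also leaves little from which to estimate the spread. Over all libraries but abc.del replicate 2, Sall4 likewise passed (0.54, adjusted p = 0.0303; 31.0% of all genes).

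**Figure D3:**
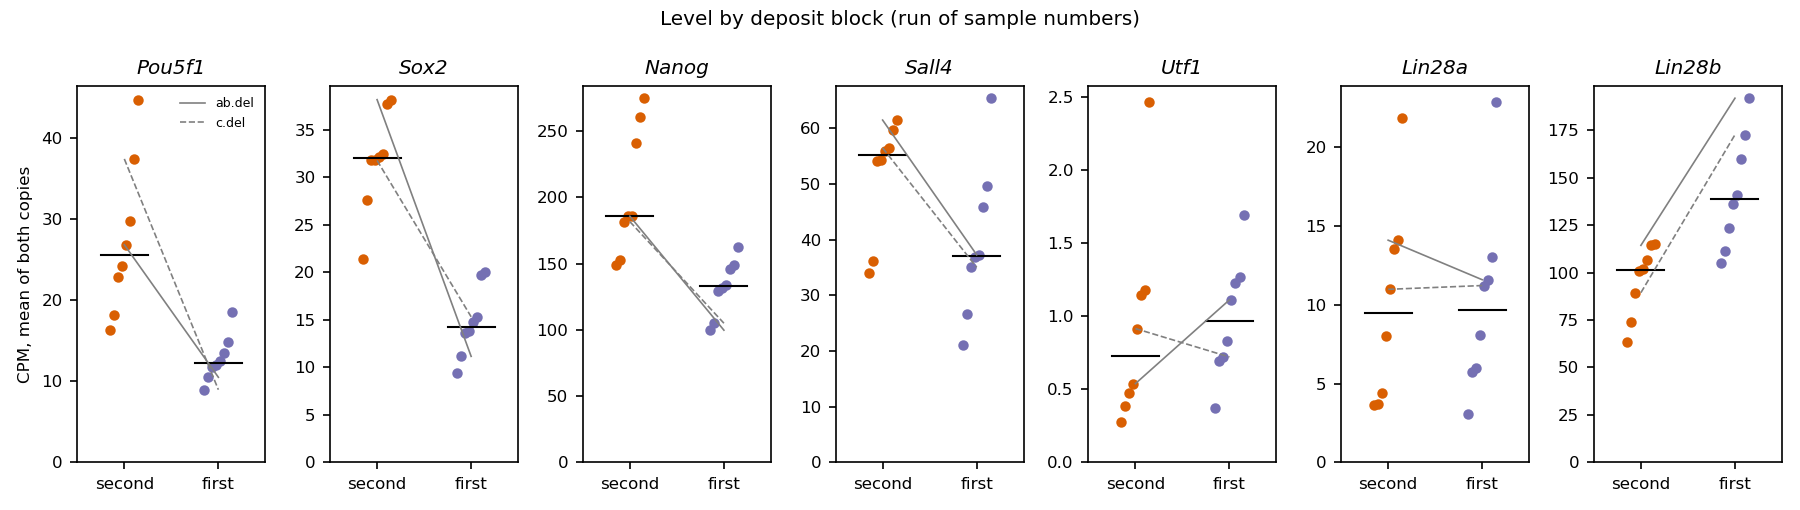
CPM of each gene, as the mean of both copies, in the 8 libraries of the second deposit block (orange, left) and the 8 of the first (purple, right), with black lines at the medians and grey lines joining the ab.del (solid) and c.del (dashed) libraries. Sox2 medians were 32.0 and 14.3 CPM in the second and the first block, and Lin28b medians were 101 and 139 CPM.

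The sums of neural progenitor and mesoderm markers moved with the blocks. The 4 neural progenitor markers summed to 9.13 to 27.0 CPM in the second block, against 2.18 to 5.82 CPM in the first, and the 4 mesoderm markers to 1.23 to 2.96 CPM, against 0.330 to 0.990 CPM. Nes and Pax6 made up most of the neural sum, Sox1 averaged 0.166 CPM, and Mesp1 was at 0 throughout. The other sums overlapped: primitive endoderm markers summed to 6.48 to 19.5 CPM in the second block, against 5.15 to 13.0 CPM in the first, and primed epiblast markers to 10.1 to 21.7 CPM, against 11.6 to 22.1 CPM. Trophoblast markers summed to 0 to 1.17 CPM, against 0 to 0.420 CPM, and fibroblast markers to 0 to 1.64 CPM, against 0.332 to 1.69 CPM. The stem cell markers, which include 3 of the members, summed to 1595 to 2139 CPM, against 1580 to 2227 CPM. Esrrb, Tfcp2l1 and Zfp42 made up most of this sum, with means of 741, 514 and 291 CPM, so it says little of the other markers. Of those, Pou5f1, Sox2, Nanog, Klf4 and Fgf4 were called higher in the second block and Dppa5a lower. The library median of log2(CPM + 0.1) was 2.89 to 3.20 in the second block, against 2.64 to 2.87 in the first. The part of these markers and medians in the results was not tested, and in bulk samples a change in the number of cells that transcribe a gene and a change in transcription per cell cannot be told apart.

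The hybrid genome gives a value for each copy, and 3 of the 7 genes differed between 129 and cast over the 16 libraries, all with cast higher. Among all genes 45.2% were called (21.4% with cast higher), so a call was no rarity. The sum of each copy's column is fixed at 1000000, so a general excess of 129 reads is divided out of CPM. The file headers name 129 as the reference in the split of reads, and the submitters' processing notes name mm10. The effect of the reference on single genes was not tested.

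Lin28b (chr10:45376619-45470201, minus strand) differed in the same direction in every library. Its 129 copy gave 34.0 to 153 CPM and its cast copy 92.6 to 231 CPM, and cast was 1.51 to 2.73 times 129 in every library. The log2 difference, 129 minus cast, was -0.99 (SE 0.058, adjusted p = 6.35e-10, limma). The 129 share of its reads was 28.9% to 41.3% (median 35.2%), whereas the 31 genes within 5 Mb together had 48.9% to 52.8% 129 reads. The 95% Wilson interval of Lin28b lay below its neighbours' share in all 16 libraries. Such intervals cover counting error only.

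Nanog (chr6:122707489-122714633, plus strand) was also higher on cast in 16 of 16 libraries, by 1.02 to 1.66 times. The difference was -0.32 (SE 0.051, adjusted p = 6.13e-05). Its share of 129 reads was 40.2% to 52.9% (median 47.1%), and the interval lay below the share of its 77 neighbours (52.4% to 54.7%) in 15 libraries, b.del being the exception. The lowest shares of 129 reads were in F121-9, at 42.8% and 40.2%, where 129 was at 131 and 101 CPM and cast at 194 and 167 CPM. Nanog and Lin28b were higher on cast in every library, as were 7.5% of all genes, and no member was higher on 129 in every library (8.81%).

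Utf1 (chr7:139943856-139945112, plus strand) had a mean difference of -1.16 (SE 0.33, adjusted p = 0.00786), with cast higher in 13 libraries. Its counts were low. In 245kdel there were 0 reads on 129 and 5 on cast, and 0 reads allows up to 0.296 CPM on 129 (3 reads). In b.del, c.del replicate 1 and ac.del 129 was the higher copy, at 1.73, 1.09 and 0.555 CPM, against 0.625, 0.350 and 0.392 CPM on cast. In 4k.b.c, where chromosome 7 was unbalanced, 129 was at 0.278 CPM (3 reads) and cast at 4.65 CPM (48 reads), and without this library the mean difference was -0.996.

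The copies of the other 4 genes did not differ past the threshold: the mean difference was 0.13 for Pou5f1 (SE 0.10, adjusted p = 0.317), 0.10 for Sox2 (SE 0.11, adjusted p = 0.463), -0.05 for Sall4 (SE 0.041, adjusted p = 0.382) and -0.19 for Lin28a (SE 0.13, adjusted p = 0.233). Sall4 (chr2:168748332-168767201, minus strand) was the most even, with 47.1% to 54.3% 129 reads. Sox2 had 35.2% 129 reads (interval 31.8% to 38.7%) in c.del replicate 1 and 40.4% (38.5% to 42.3%) in ac.del, against 45.4% to 62.6% in the 14 other libraries. Both are libraries with an unbalanced chromosome 3, where the 44 neighbours of Sox2 had 36.5% and 39.8% 129 reads, both inside the intervals of Sox2. Over the 14 libraries with a balanced chromosome 3 the Sox2 difference was 0.24 (SD 0.29), with 129 higher in 12, and without the 4 libraries with any unbalanced autosome it was 0.21 (SE 0.086, adjusted p = 0.0663).

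Pou5f1 (chr17:35506032-35510777, plus strand) stood farthest from its neighbours in c.del replicate 1. It had 72.3% 129 reads there (interval 67.9% to 76.3%), with 12.7 CPM on 129 and 5.26 CPM on cast, while its 90 neighbours had 56.7%. In abc.del replicate 2 it had 40.9% (37.1% to 44.8%), with 14.6 CPM on 129 and 22.4 CPM on cast, while its neighbours had 55.4%. Their group partners stood on the same side of 50% in c.del, with 59.6% in c.del replicate 2, and on the opposite side in abc.del, with 56.1% in abc.del replicate 1. Such departures were not limited to these libraries. The Pou5f1 interval lay below its neighbours' share in 6 of 16 libraries, unedited F121-9 replicate 1 among them, and above it in 3. Lin28a (chr4:134003330-134018816, minus strand) ranged from 34.8% 129 reads in b.del to 60.2% in 4k.b.c. Its 119 neighbours had 50.5% to 52.6%, and its interval lay below their share in 7 libraries and above it in 3. A test of whether the difference between the copies changed with the edit called 0 of 14094 genes in each of the 3 edited groups (0.0%, limma; 1016 genes in abc.del, 776 in ab.del and 881 in c.del at an unadjusted p of 0.05). The lowest unadjusted p of a member was 0.0407, for Nanog in abc.del, where 129 minus cast was 0.46 higher than in F121-9 (SE 0.17, adjusted p = 0.671).

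**Figure D4:**
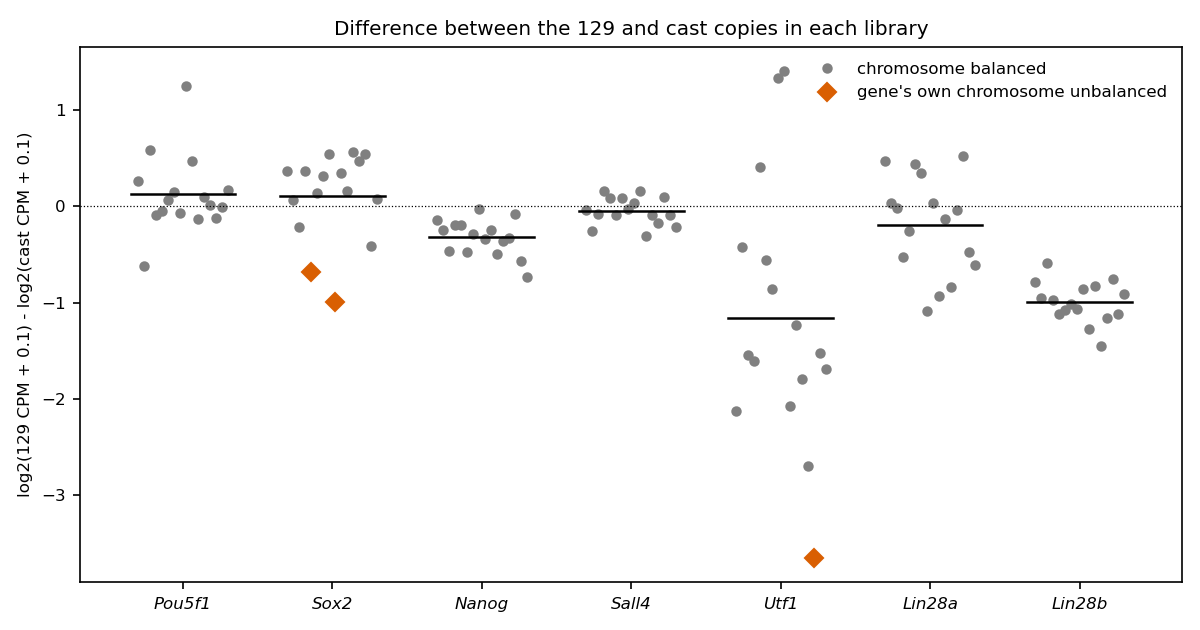
Difference between the 129 and the cast copy, as log2(129 CPM + 0.1) minus log2(cast CPM + 0.1), in each of 16 libraries, with black lines at the means. Orange diamonds are libraries in which the gene's own chromosome was unbalanced (Sox2 in c.del replicate 1 and ac.del, Utf1 in 4k.b.c). All Lin28b and Nanog points lie below 0, with means of -0.99 and -0.32.

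The copies of a gene varied together over the libraries in 6 of 7 members. Pearson's r between log2 values of 129 and cast was 0.97 for Sall4, 0.97 for Lin28b, 0.91 for Nanog, 0.86 for Lin28a, 0.86 for Pou5f1 and 0.80 for Sox2 (n = 16, Benjamini-Hochberg adjusted permutation p of at most 0.000163), with Spearman's rho of 0.81 to 0.97. Utf1 had r = 0.13 (rho 0.18, adjusted permutation p = 0.642). Without the 2 libraries farthest from the median r was 0.82 to 0.95 for these 6. Within blocks Sox2 copies gave r = 0.28 in the second and 0.49 in the first (adjusted permutation p = 0.585 and 0.304, n = 8), while Sall4 copies gave 0.98 and 0.98. The copies share a library, so its depth and scaling enter both values. The share of all genes whose copies vary together was not computed, so the count of members has no background here.

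Of 21 pairs of members, 6 correlated over the 16 libraries at an adjusted permutation p of 0.05. With replicates averaged to 12 groups, 0 pairs passed. How often pairs of other genes correlate was not computed, so the count has no background here. Pou5f1 rose with Sox2 (r = 0.78, rho 0.74, adjusted permutation p = 0.00371) and with Nanog (r = 0.76, rho 0.76, adjusted permutation p = 0.00371), and Sox2 with Nanog (r = 0.65, rho 0.66, adjusted permutation p = 0.0303). Nanog (r = -0.78, rho -0.69, adjusted permutation p = 0.00371) and Sox2 (r = -0.63, rho -0.59, adjusted permutation p = 0.0317) ran against Lin28b. Sall4 and Lin28a rose together (r = 0.68, rho 0.68, adjusted permutation p = 0.0220). Pou5f1 with Lin28b did not pass (r = -0.58, rho -0.59, adjusted permutation p = 0.0508).

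Within the deposit blocks none of the 21 pairs passed. Pou5f1 with Sox2 had r = 0.35 in the second block and 0.17 in the first (adjusted permutation p = 0.698 and 0.913, n = 8 each). Sox2 with Nanog had r = -0.16 and 0.12, and Sox2 with Lin28b 0.09 and -0.08, so neither relation was seen inside a block. With 8 libraries each these values are uncertain. The part of the difference between blocks in the relations over all libraries was not tested. Pou5f1 with Nanog had r = 0.33 and 0.63 and Nanog with Lin28b r = -0.41 and -0.74. Sall4 with Lin28a kept its size, at r = 0.74 and 0.87 (unadjusted exact permutation p = 0.0247 and 0.00610, adjusted p = 0.259 and 0.128, n = 8 each). It was also the 1 pair that passed after median centring (r = 0.74, adjusted permutation p = 0.0225). Without the 2 libraries farthest from the Sall4 median r was 0.56 (adjusted permutation p = 0.131). Lin28a and Lin28b had r = 0.50 (rho 0.46, adjusted permutation p = 0.101).

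**Figure D5:**
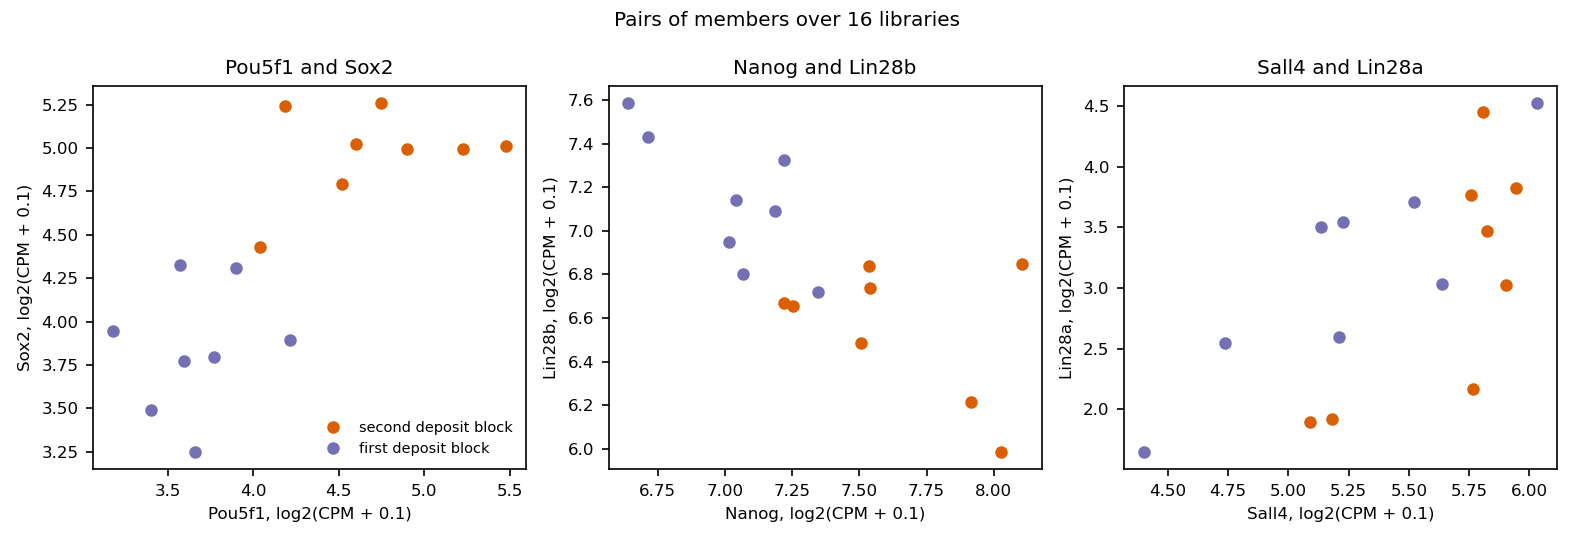
log2(CPM + 0.1), mean of both copies, of Sox2 against Pou5f1, Lin28b against Nanog and Lin28a against Sall4, each point 1 of 16 libraries, in orange for the second and purple for the first deposit block. Pou5f1 and Sox2 are related over all libraries (r = 0.78), with the blocks apart on Sox2 and overlapping on Pou5f1, while Sall4 and Lin28a rise together inside each block (r = 0.74 and 0.87).

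Among genes with a mean of at least 1 CPM, those whose log2 levels were most like each member over the 16 libraries are given as a description, since libraries share depth and block. For Pou5f1 they were Eif3d, Fasn and Rps10 (r = 0.97, 0.97 and 0.96). For Sox2 they included Ddx41 and Slc25a3 (r = 0.95 each), and for Nanog they were Fkbp15, Wbp4 and Tbc1d10a (r = 0.93, 0.92 and 0.91). Sall4 was most like Zscan10 (r = 0.95), a stem cell zinc finger gene, then Sdf4 and Ccdc12 (r = 0.92 each). Lin28a was most like Gtf2h3 (r = 0.86), Ddx58 and Il17rd (r = 0.85 each), Lin28b like Chn1 (r = 0.91), Dhx35 and AW554918 (r = 0.90 each), and Utf1 like U2af2 (r = 0.86), Reep3 and Zfp869 (r = 0.79 and 0.77).

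The wider pathway was followed through 4 lists. In the 3 comparisons with F121-9 and in the trend, 0 members of any list passed (limma, adjusted p of 0.05). Of 18 genes known as targets of OCT4, SOX2 and NANOG, Jarid2 and Esrrb had the highest CPM, with means of 1210 and 741. The levels of list genes were not divided by gene span, so longer genes gather more reads. The median difference of the list in abc.del was 0.42, against 0.04 over all genes, and it was 0.18 in ab.del (all genes 0.08) and 0.13 in c.del (0.09). Between the blocks 5 of the 18 were higher in the second and 1 was lower, when 24.6% of all genes were higher and 7.17% lower, so the counts were close to the background. The list had a median of 0.31, against 0.20 over all genes. Mycn, a growth-promoting transcription factor that is also a let-7 target, was at 18.0 to 43.7 CPM in the second block, against 8.48 to 19.6 CPM in the first (1.27, SE 0.20, adjusted p = 0.000145). Klf4, a naive state transcription factor, was at 12.2 to 21.9 CPM, against 4.21 to 12.5 CPM (1.07, SE 0.21, adjusted p = 0.000700). Fbxo15 (0.70, SE 0.13, adjusted p = 0.000505) and Rif1 (0.33, SE 0.083, adjusted p = 0.00523) were also higher, as was Fgf4 (0.99, SE 0.26, adjusted p = 0.00741). Dppa5a was the 1 target that was lower (-0.87, SE 0.28, adjusted p = 0.0222).

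The 11 genes of let-7 processing and LIN28 partners were all transcribed and had a median difference of 0.25 in abc.del. Trim71 and Drosha had the highest undivided CPM, with means of 289 and 180. Between the blocks 2 of the 11 were higher and 3 lower in the second (24.6% and 7.17% of all genes), with a median of -0.11, against 0.20 over all genes. The uridyl transferases that act with LIN28 on let-7 precursors went opposite ways: Tut7 was at 37.7 to 57.0 CPM in the second block, against 24.7 to 34.6 CPM in the first (0.67, SE 0.10, adjusted p = 6.72e-05), whereas Tut4 was at 55.1 to 108 CPM, against 76.8 to 139 CPM (-0.51, SE 0.15, adjusted p = 0.0153). Dis3l2, the nuclease that degrades uridylated precursors, was at 89.0 to 110 CPM, against 112 to 150 CPM (-0.41, SE 0.074, adjusted p = 0.000407). Khsrp was higher (0.51, SE 0.12, adjusted p = 0.00299) and Dgcr8, the partner of Drosha, lower (-0.34, SE 0.088, adjusted p = 0.00649).

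Of the 12 known let-7 targets 11 were tested (Ccnd2 was below the filter). Igf2bp3 and Igf2bp1 had the highest undivided CPM, with means of 319 and 265. The median difference of the 11 was 0.34 in abc.del, 0.15 in ab.del and 0.43 in c.del. Between the blocks Mycn and Nras (0.43, SE 0.13, adjusted p = 0.0152) were higher in the second and Igf2bp2, an RNA-binding protein gene, was lower (-0.68, SE 0.15, adjusted p = 0.00243), with a list median of -0.08, against 0.20 over all genes. Of the 10 paralogs of the members 5 were tested, and Pou2f1 and Sall1 had the highest undivided CPM, with means of 401 and 29.7. Sall3 was the 1 paralog called between the blocks, at 14.8 to 28.3 CPM in the second, against 9.32 to 14.1 CPM in the first (0.82, SE 0.14, adjusted p = 0.000203).

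Between the copies, where 45.2% of all genes were called, the lists divided as follows. Of the OCT4, SOX2 and NANOG targets 5 were higher on 129, namely Gdf3 (0.57, SE 0.066), Tdgf1 (0.54, SE 0.068), Spp1 (1.21, SE 0.16), Dppa5a and Fbxo15, and 3 were higher on cast, namely Klf4 (-0.77, SE 0.10), Jarid2 and Rif1. Of the let-7 processing genes 3 were higher on 129, namely Msi2 (0.48, SE 0.037), Khsrp (0.30, SE 0.060) and Trim71, and Tut4 (-0.17, SE 0.030) and Tut7 (-0.19, SE 0.037) were higher on cast. Of the let-7 targets 2 were higher on 129, namely Igf2bp3 (0.17, SE 0.028) and Prtg, and 5 on cast. Among those were Hmga2, a chromatin protein gene and classic let-7 target (-3.25, SE 0.18), Igf2bp2 (-0.50, SE 0.034), Arid3b (-0.32, SE 0.052) and Ccnd1. Among the paralogs Pou2f3 (1.42, SE 0.17) and Sall3 (0.27, SE 0.073) were higher on 129. The genes given with values had adjusted p-values of 4.53e-10 (Hmga2) to 0.00636 (Sall3), by limma.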

How the data were processed

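Bru-seq reads were processed with Bowtie2 and bedtools on mm10, per the submitters' processing notes, with versions not given in the sources used here. The file headers record clipping, a minimum mapping quality of 10 and a split by homozygous SNPs into 129 (reference) and cast reads. The submitters call the deposited values RPKM, but they are CPM: each of 32 columns sums to 1000000 over 42497 lines, and 100% of values are whole reads within 0.01. The widest line per symbol was used (the 6 drawn segments were left out), and coordinates are 1-based mm10.

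Levels are log2(CPM + 0.1) of the mean of the copies, for genes with a mean of at least 0.2 CPM. A single limma 3.58.1 fit (R 4.3.3, eBayes with a trend) held the 4 groups of 2 libraries, with two-sided p-values adjusted by Benjamini-Hochberg. Differences between copies and the trend used limma too. Correlations used 100000 permutations (exact for 8 libraries), two-sided. The fold changes understate changes of low genes. Alternatives were edgeR 4.0.16 and DESeq2 1.42.0 on the recovered reads, other pseudocounts, filters and scalings, single copies, a covariate for deposit block, and libraries left out. The block comparison and its alternatives, the grouping of lettered deletions, edgeR for the copies and leaving out libraries with an unbalanced autosome were added after the values were seen. Named genes were the members, the 3 genes most like each, overlapping genes, and up to 4 called genes per list (2 by level where none passed). Further list genes, such as Tut4, Fgf4 and Dppa5a between the blocks, were named after their values were seen. A few genes that the rule names are not reported here. The members and lists were chosen with earlier results of these data known. Scripts were tested on simulated data. Other steps ran in Python 3.11.15 (matplotlib 3.10.9, numpy 2.4.6, pandas 2.3.3, scipy 1.17.1).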

Additional observations from a re-analysis of the deposited data

Results flagged for a closer look

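Utf1 in 4k.b.c, at 2.46 CPM (51 reads on both copies), stood far above the 7 other libraries of the second deposit block, which reached 1.18 CPM at most. The gap to the next library was 0.587 of the block's range, above Dixon's 95% critical value for 8 libraries. Chromosome 7, which carries Utf1, was unbalanced in this library, and its part in the value was not tested. The 14 sets of 8 values were examined at both ends, and chance alone marks about 1 set in 20.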

How the results depend on the processing

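Calls of members in abc.del numbered 0 in the reported fit and 1 (Lin28a) with deposit block as a covariate, with the 2 compared groups alone and with DESeq2, and 0 to 1 over libraries left out. Those in ab.del numbered 1 (Lin28b) with block as a covariate, and those of the trend 1 (Lin28a) with DESeq2. Correlated pairs numbered 6, and 1 under median centring and 0 within either block or over 12 group means. Correlated copies numbered 6, and 3 within the first block. The 3 calls between copies were made under every alternative run except a minimum mean of 1 CPM, which left Utf1 untested. Directions turned round only for differences that had not passed, apart from 2 correlations: Sox2 with Nanog was -0.16 and Sox2 with Lin28b 0.0942 within the second block. With block as a covariate Pou5f1 was -0.45 in ab.del and -0.33 in c.del, and Sox2 -0.11 and -0.0192. The Pou5f1 trend was -0.0524 on 129 alone, -0.0504 by edgeR and -0.0527 by DESeq2. Nanog on 129 alone was 0.19, 0.0688 and 0.11 in abc.del, ab.del and c.del, Utf1 on cast alone -0.0949 in c.del, and Lin28a between blocks 0.12 in ab.del and c.del alone. Leaving out 1 library gave Pou5f1 -0.28 to 1.07 in ab.del, -0.50 to 1.55 in c.del and -0.0844 to 0.0808 for the trend, Sox2 -0.29 to 1.47 in ab.del and -0.00729 to 0.20 for the trend, Nanog -0.22 to 0.0643, -0.57 to 0.33 and -0.49 to 0.30 in abc.del, ab.del and c.del, Lin28a between blocks -0.29 to 0.12, and Lin28b in c.del -0.28 to 0.67. The cause was not tested. Over all genes, abc.del gave 31 calls, and 18 by edgeR, 358 by DESeq2, 599 with its 2 groups alone, 671 with block as a covariate, 85 under median centring, 13 with a pseudocount of 0.01 and 0 to 156 over libraries left out. In ab.del there were 7 calls, and 11 by edgeR, 187 by DESeq2, 202 with block as a covariate, 21 with its 2 groups alone, 36 under median centring and 0 to 53 over libraries left out. In c.del there were 7, and 8 by edgeR, 222 by DESeq2, 207 with block as a covariate, 28 under median centring and 0 to 29 over libraries left out. On single copies 129 gave 35, 30 and 0 calls in abc.del, ab.del and c.del, and cast gave 0 in each. The remaining pseudocounts, filters, quantile scaling and untrended eBayes gave 15 to 46 calls in abc.del, 6 to 37 in ab.del and 5 to 35 in c.del. The block comparison gave 3466 higher and 1010 lower, and 1403 and 2990 under median centring. Depth limits Utf1 most: 0 reads on a copy allows up to 0.0833 to 0.329 CPM, depending on the library and copy. No paired analysis was possible because only the F121-9 labels carry replicate numbers, so no number links libraries of different groups. Pairing by edit (ab.del and c.del across blocks) and by library (129 and cast) was possible and is given with those results.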
